A study of Mus musculus with 8 samples.

Results

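The genes described here are 40 members of glucose metabolism, picked by name from the 24341 genes of the deposited table: 3 glucose transporters, the enzymes of glycolysis and gluconeogenesis, the enzymes that set fructose-2,6-bisphosphate, lactate dehydrogenase subunits and lactate transporters, pyruvate dehydrogenase with its kinases, and Hif1a. Of the 40, 36 had a mean of at least 0.5 FPKM (fragments scaled to transcript length and to the size of the library) over the 8 libraries and were tested, among 13777 genes in all. Pdk4, Fbp2, G6pc and Pck1 were below that level. The libraries were total RNA from single mouse pancreatic buds at E11.0, about 40 somites, labelled as strain CD1, from which the mesenchyme had been taken off by hand. The 5 WT buds were compared with 3 Lats1/2-null buds of genotype Pdx1Creearly;Lats1f/f;Lats2f/f, which lack the Hippo pathway kinases LATS1 and LATS2 in cells that have expressed the Cre. The Cre is driven by Pdx1, so in a null bud the recombined cells are the pancreatic progenitors and their descendants, and the other cells that stay with the bud keep both kinases.

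Glycolysis splits glucose into pyruvate and yields ATP without oxygen. Pyruvate is then either reduced to lactate and exported, or passed into mitochondria by the pyruvate dehydrogenase complex, which the pyruvate dehydrogenase kinases switch off. Gluconeogenesis runs the path backwards with its own enzymes at the irreversible steps, mainly in liver and kidney. Most steps have several isozymes with different tissue ranges, and many glycolytic genes are known targets of the hypoxia-inducible factor HIF1. In the mature pancreas the transporter Slc2a2 (GLUT2) and glucokinase set how beta cells sense glucose.

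WT replicate 5 stood apart from the other buds in these genes, so genotype differences below are given with and without it. Its size factor was 1.01, within the range of 0.999 to 1.01 of the 8 libraries. The steps between its low values placed its read depth at 0.780 of that of WT replicate 1, against 0.961 to 1.03 in the other libraries. This is an estimate: of the 306 low genes used, 23.5% shared that step, and 22.8% to 26.0% did in the other libraries. WT replicate 5 had the fewest genes above 0, 16117 against 16427 to 16982. Transcripts of the targeted genes were still read in null buds: Lats1 was 14.1 to 16.6 FPKM in WT and 10.1 to 13.8 in null buds, without overlap, and Lats2 was 11.6 to 14.7 and 11.1 to 13.4, with overlap. These values cover each whole gene and not the deleted exons alone. All 14 tested epithelial markers had higher values in each null bud than in any WT bud, and their list summed to 235 to 304 FPKM in WT and 471 to 1142 in null buds. Mesenchyme markers summed to 1090 to 1302 FPKM in WT and 1004 to 1108 in null buds, so transcripts of cells other than epithelium were present in every bud. In such bulk samples, a smaller number of cells of a type and less RNA per cell cannot be told apart.

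The core enzymes were among the abundant transcripts of the bud, and their levels were close to each other in WT replicates 1 to 4. Gapdh was the highest member at 678 ± 66.1 FPKM (SD, n = 4 buds), followed by Pkm at 412 ± 39.6, Eno1 at 308 ± 33.3, Aldoa at 185 ± 7.28, Ldha at 173 ± 17.3, Pgam1 at 122 ± 9.75, Pgk1 at 116 ± 12.3 and Tpi1 at 93.6 ± 3.98. The members of lowest level, G6pc and Pck1, make the enzymes specific to glucose release and to phosphoenolpyruvate synthesis in the cytosol. Over the 36 tested members, the SD of WT replicates 1 to 4 was 2.45% to 77.4% of their mean, with a median of 10.5%. The 10 genes Gpi1, Pfkl, Aldoa, Tpi1, Gapdh, Pgk1, Pgam1, Eno1, Pkm and Ldha, the main isozymes from glucose-6-phosphate to lactate, summed to 1974 to 2375 FPKM in WT replicates 1 to 4, to 2225 to 2430 in the null buds and to 4437 in WT replicate 5.

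In WT replicate 5, 25 of the 40 members had their highest value of all 8 buds, as did 22.4% of all tested genes. For 19 of the 36 tested members (52.8%) the gap between WT replicate 5 and the next WT bud was large enough to pass Dixon's outlier criterion for 5 values, a gap above 0.71 of the whole range. Over all tested genes this share was 2.81%. No tested member passed it as the highest value of any other WT bud. The ratio of WT replicate 5 to the mean of WT replicates 1 to 4 had a median of 1.77 over the members (0.623 to 5.29) and 1.00 over all tested genes, and it was at least 2 for 14 members (38.9%) against 2.59% of all genes. The 19 genes covered nearly every step from uptake to lactate export: Slc2a1, Slc2a3, Hk1, Hk2, Gpi1, Pfkl, Pfkp, Pfkfb2, Pfkfb3, Aldoa, Aldoc, Tpi1, Pgk1, Pgam1, Eno1, Pkm, Ldha, Slc16a3 and Pdk1.

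**Figure D1:**
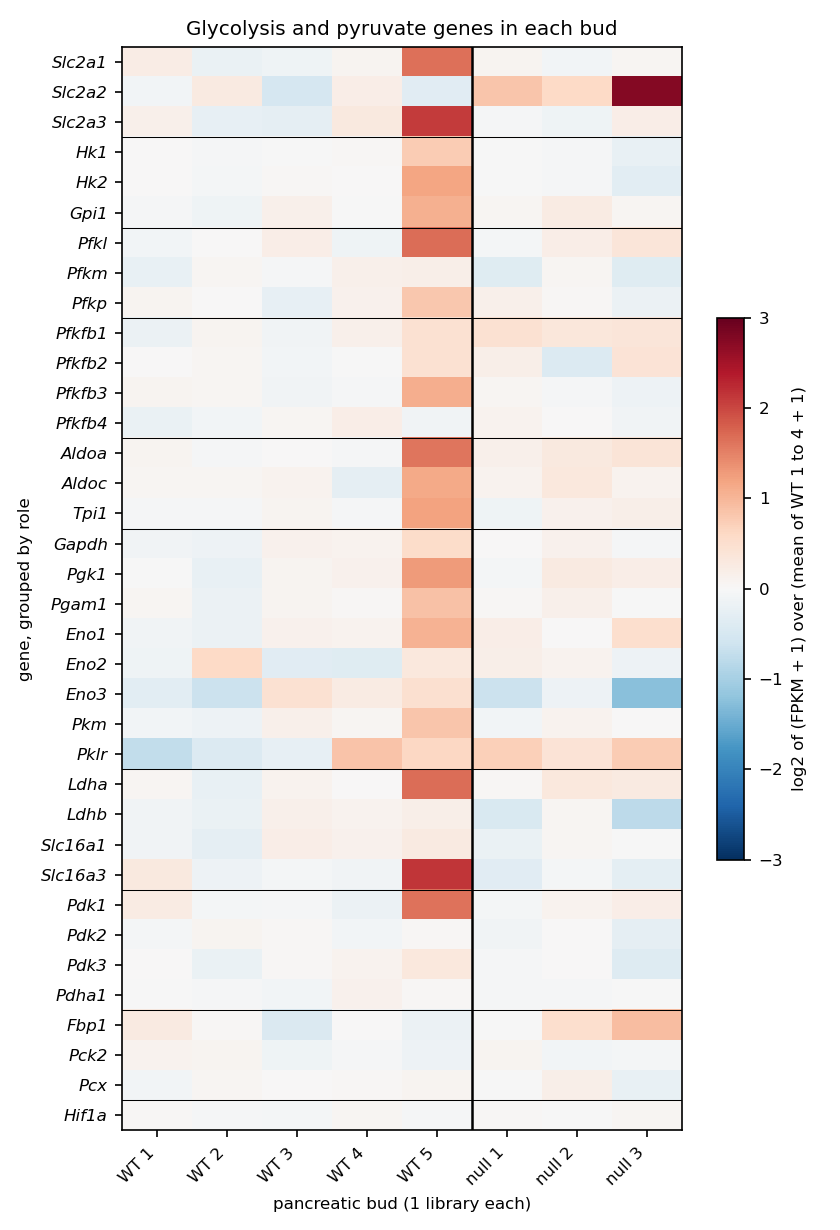
Each row is 1 of the 36 tested members, grouped by role, and each column is 1 bud. Colour gives log2 of (FPKM + 1) in that bud over the mean of WT replicates 1 to 4 plus 1, so the WT 5 column shows the 19 genes named above in red while Ldhb, Pfkm, Pdk2, Pdha1, Pck2, Pcx and Hif1a stay pale there.

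At the entry step, Slc2a1, which makes the widespread glucose transporter GLUT1, measured 37.0, 27.5, 28.9, 33.7 and 101 FPKM in WT replicates 1 to 5, and 33.9, 30.2 and 33.2 in null replicates 1 to 3. WT replicate 5 was 3.19 times the mean of the other WT buds, and the null buds lay inside the range of WT replicates 1 to 4. Slc2a3, the high-affinity transporter GLUT3, was lower overall and differed by a larger ratio: 3.62, 2.53, 2.49, 4.11 and 16.9 FPKM in WT and 3.07, 2.83 and 3.84 in null buds, a ratio of 5.29 for WT replicate 5. The hexokinases, which trap glucose in the cell as glucose-6-phosphate, had the smallest SD relative to the mean of all tested members in WT replicates 1 to 4. Hk2 was 21.1, 20.2, 21.4, 21.0 and 49.1 FPKM in WT and 20.6, 20.4 and 16.5 in null buds. Hk1 was 8.75 to 9.29 FPKM in WT replicates 1 to 4 and 16.0 in WT replicate 5. Gpi1, the isomerase that follows, was 59.7 to 72.7 and 137 FPKM.

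Phosphofructokinase, the step that commits sugar to glycolysis, showed subunits that differed in this respect. Pfkl, the liver-type subunit, was 29.4, 31.6, 36.0, 28.7 and 103 FPKM in WT and 30.1, 36.0 and 40.6 in null buds. Pfkm, the muscle-type subunit, was 14.5, 17.8, 16.6, 19.1 and 19.4 FPKM in WT and 12.9, 17.7 and 13.0 in null buds, so WT replicate 5 was 1.15 times the other WT buds for Pfkm against 3.27 times for Pfkl. Pfkl made up 54.3% to 64.1% of the summed FPKM of the 3 subunits in WT replicates 1 to 4 and 78.6% in WT replicate 5. Pfkp, the platelet-type subunit, was 8.50 FPKM in WT replicate 5 and 3.57 to 5.00 in the other WT buds. The table's Pfkm locus is 2.35 times and its Pfkp locus 1.45 times as long as the RefSeq gene, so their FPKM may include fragments from beyond the gene.

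Of the bifunctional PFKFB enzymes, which make and break the phosphofructokinase activator fructose-2,6-bisphosphate, Pfkfb3 was the most abundant, with 10.0, 9.71, 8.57, 9.01 and 21.0 FPKM in WT and 9.82, 8.997 and 8.30 in null buds. Pfkfb2 was also highest in WT replicate 5 (3.06 against 1.78 to 2.08 FPKM). Pfkfb4 was not: it measured 1.91 FPKM there against 1.73 to 2.61 in the other WT buds.

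In the middle and lower steps, Aldoa, the main aldolase, was 195, 180, 186, 180 and 564 FPKM in WT and 207, 226 and 244 in null buds. Triose phosphate isomerase (Tpi1) was 91.0 to 99.6 FPKM in WT replicates 1 to 4 and 219 in WT replicate 5, and phosphoglycerate kinase (Pgk1) was 99.5 to 127 and 284. The plot of 8 genes by bud shows the same shape for Slc2a1, Pfkl, Aldoa, Ldha, Slc16a3 and Pdk1. Pgam1, the mutase, was 108 to 130 FPKM and 225 in WT replicate 5. Eno1, the main enolase, was 275 to 339 FPKM in WT replicates 1 to 4 and 634 in WT replicate 5. Reads of Eno1 can be shared with its near-identical copy Eno1b, and the sum of both was 317 to 412 FPKM in WT replicates 1 to 4, 738 in WT replicate 5 and 401 to 515 in null buds. Gapdh, often used as a reference transcript, was 632, 611, 742, 728 and 988 FPKM in WT and 682, 744 and 660 in null buds, which was the highest value in WT replicate 5 without passing the outlier criterion. Gapdh and several other members have many processed pseudogenes in the mouse genome, which can take or give reads.

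**Figure D2:**
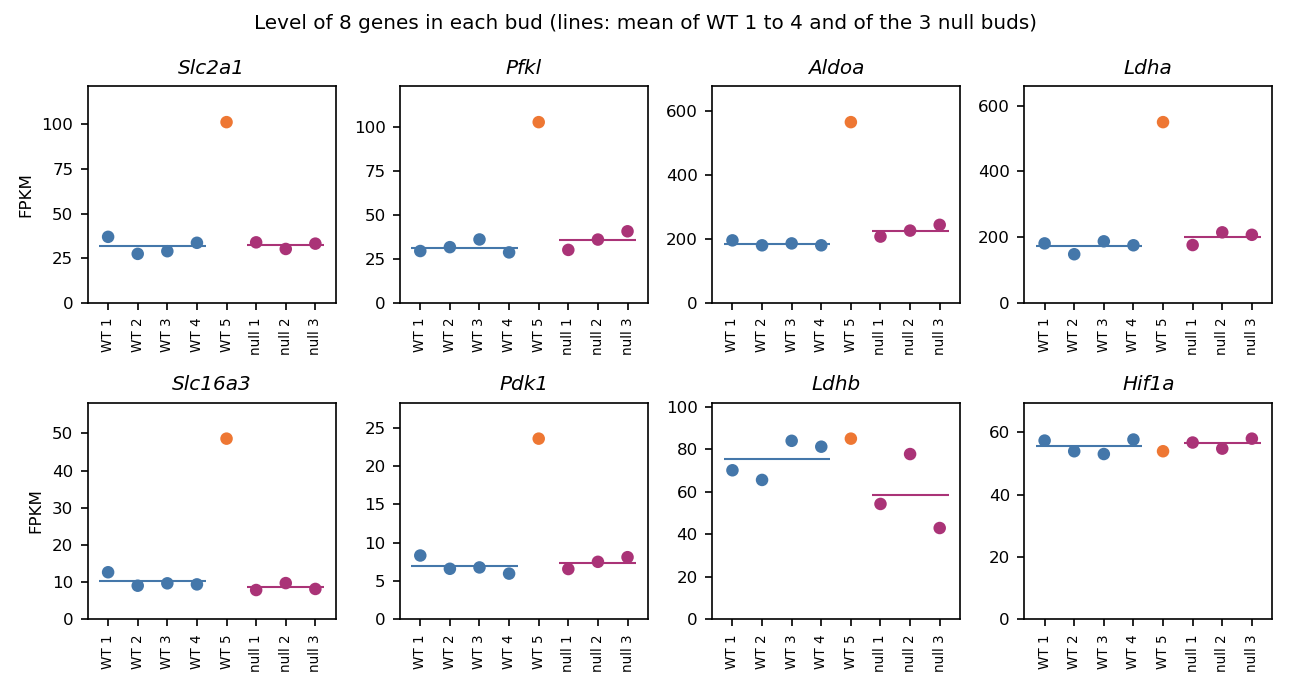
FPKM of 8 genes in each of the 8 buds, on linear axes that start at 0. Points are single buds (blue WT 1 to 4, orange WT 5, purple null), and lines are the mean of WT 1 to 4 and of the 3 null buds. WT 5 lies far above all other buds for 6 of the genes, and Ldhb and Hif1a do not show this.

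At the pyruvate branch point, Pkm, the main pyruvate kinase gene, was 371 to 460 FPKM in WT replicates 1 to 4, 735 in WT replicate 5 and 389 to 444 in null buds. Ldha, the lactate dehydrogenase subunit that favours lactate formation, was 181, 148, 187, 175 and 549 FPKM in WT and 176, 214 and 207 in null buds. Ldhb, the subunit that favours the reverse reaction, was 70.1, 65.5, 83.9, 81.1 and 84.9 FPKM in WT and 54.2, 77.7 and 42.9 in null buds. Ldha thus made up 68.3% to 72.1% of the summed FPKM of both subunits in WT replicates 1 to 4, 86.6% in WT replicate 5 and 73.4% to 82.8% in null buds. The lactate exporter Slc16a3 (MCT4) was 12.7, 9.05, 9.69, 9.40 and 48.6 FPKM in WT and 7.89, 9.75 and 8.18 in null buds, 4.76 times higher in WT replicate 5 than the mean of the other WT buds. Slc16a1 (MCT1), which carries lactate in either direction, was 10.8 to 16.1 FPKM over the 8 buds, so Slc16a3 held 75.1% of the summed FPKM of both transporters in WT replicate 5 and 38.8% to 51.0% in the other 7 buds.

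Among the kinases that inactivate pyruvate dehydrogenase, Pdk1 was 8.32, 6.59, 6.77, 5.96 and 23.6 FPKM in WT and 6.56, 7.50 and 8.10 in null buds. Pdk3, the most abundant of the 4, was 20.9 to 26.0 FPKM in WT replicates 1 to 4 and 30.1 in WT replicate 5. Pdk2 stayed between 4.04 and 5.46 FPKM in all 8 buds. Pdk1 accordingly held 39.9% of the summed FPKM of the 4 kinases in WT replicate 5 and 16.1% to 26.4% in the other buds. Pdha1, the catalytic subunit of pyruvate dehydrogenase itself, was 30.5 to 35.4 FPKM throughout. The locus that the table gives for Slc2a3 is 0.2003, that of Eno3 0.569 and that of Tpi1 1.58 times as long as the RefSeq gene. The table's loci of Pdk1 and Pdha1 are 16.8 and 9.25 times as long as their RefSeq genes, so neighbouring transcripts may add to their FPKM.

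Hif1a, the oxygen-regulated subunit of HIF1, is controlled mainly through the stability of its protein. Its transcript was 57.3, 53.9, 53.0, 57.7 and 53.9 FPKM in WT and 56.7, 54.7 and 58.0 in null buds, with WT replicate 5 inside the range of the others. Hypoxia targets outside glycolysis, a list chosen with earlier results of these data known, moved with the members in that bud. Of the 24 on the list, 21 were highest there of all 8 buds (22.4% of all tested genes were). The outlier criterion was passed by 19 of them (2.81% of all tested genes), and the median ratio of WT replicate 5 to the other WT buds was 2.53. Bnip3, a mitophagy receptor, was 75.6 FPKM there against 9.26 to 13.1 in WT replicates 1 to 4, and Ddit4, an mTORC1 inhibitor, was 26.3 against 3.98 to 7.66. Vegfa, the angiogenic ligand, was 74.3 FPKM against 24.4 to 38.6, and Adm, a peptide hormone, was 9.59 against at most 0.157. The 4 genes were chosen from the list after their values were seen. The heat-shock genes Hspa1a and Hspa1b, also chosen that way and on no list, were 53.6 and 69.6 FPKM in WT replicate 5 and below 1 in the other 7 buds. The part of these genes, or of the lower estimated read depth of this library, in the higher glycolytic values was not tested.

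For the other metabolic lists this ratio was nearer 1. The median ratio of WT replicate 5 to the other WT buds was 0.914 for other glycolysis and pyruvate genes (30 tested), 0.934 for the pentose phosphate pathway (10), 1.01 for the tricarboxylic acid cycle (21), 1.18 for glycogen metabolism (21) and 1.10 for Myc family and other regulators of glycolysis (16). Of the 21 genes of the tricarboxylic acid cycle, 1 passed the outlier criterion as highest in WT replicate 5. Of all 23 listed glycogen genes, tested or not, 4 did, against 2.81% of all tested genes. Among these 23, 8 had their highest value of the 8 buds there (22.4% of all tested genes did). Of the gluconeogenic members, Pck2, the mitochondrial phosphoenolpyruvate carboxykinase, was 6.27 to 7.61 FPKM and pyruvate carboxylase (Pcx) 4.53 to 6.31 over the 8 buds. Fbp1 was 0.373 FPKM in WT replicate 5, 0.685 times the mean of the other WT buds, and Fbp2 was listed at 0 there.

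**Figure D3:**
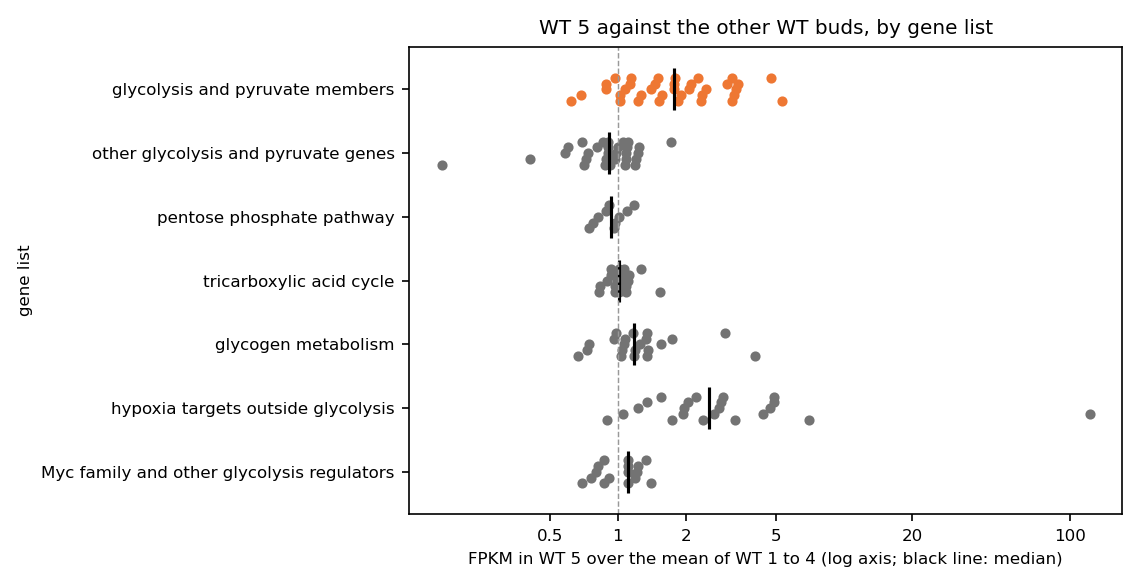
Each point is 1 tested gene, placed by its FPKM in WT replicate 5 over the mean of WT replicates 1 to 4 on a log axis, and black lines are list medians. The members (orange, median 1.77) and the hypoxia targets outside glycolysis (median 2.53) lie to the right of 1, and the medians of the other 5 lists are between 0.914 and 1.18.

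The sequence just upstream of the genes was read from RefSeq promoter windows of build GRCm38.p6, 250 bases before each annotated start, and searched on both strands for the core of the hypoxia response element, ACGTG or GCGTG. Of 39 members with a window, 31 (79.5%) held at least 1 match, against 41.5% of 27025 genes with a window. A gene can have several windows. Counted by window, 41 of 60 member windows (68.3%) held a match, against 38.6% of all 32851 windows. Both forms of the core contain the letters CG, and the windows compared were not matched for base composition. The member windows were 36.4% (a window of Pfkm) to 76.4% (Slc16a1) G or C. The part of base composition in these shares was not tested. Of the members that passed the outlier criterion in WT replicate 5, 16 of 18 held a match, and of the remaining members 15 of 21 did. The TEAD motif CATTCC, searched because LATS1 and LATS2 restrain the TEAD partners YAP1 and TAZ, was in 6 of the 39 (15.4%) and in 14.4% of all genes. A match is a description of the letters and not evidence of binding. As picked examples, the windows of Ldha, Slc16a3 and Pdk1, genes with high values in WT replicate 5, are shown. Those of Ldhb and Slc2a2, which were not high there, are shown beside them. Matches are in capitals, and where a match is palindromic its reading on the other strand overlaps it.
Ldha, chr7:46845554-46845803, + strand: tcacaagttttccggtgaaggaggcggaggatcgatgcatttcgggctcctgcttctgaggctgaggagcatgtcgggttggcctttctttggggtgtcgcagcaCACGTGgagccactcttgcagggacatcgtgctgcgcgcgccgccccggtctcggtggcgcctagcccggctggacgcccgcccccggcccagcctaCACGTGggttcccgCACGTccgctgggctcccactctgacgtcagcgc
Slc16a3, chr11:120948817-120949066, + strand: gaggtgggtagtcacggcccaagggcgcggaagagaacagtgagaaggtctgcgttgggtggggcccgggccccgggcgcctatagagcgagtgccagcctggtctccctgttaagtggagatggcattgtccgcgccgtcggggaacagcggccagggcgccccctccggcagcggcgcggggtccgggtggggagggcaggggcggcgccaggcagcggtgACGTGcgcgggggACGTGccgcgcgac
Pdk1, chr2:71872974-71873223, + strand: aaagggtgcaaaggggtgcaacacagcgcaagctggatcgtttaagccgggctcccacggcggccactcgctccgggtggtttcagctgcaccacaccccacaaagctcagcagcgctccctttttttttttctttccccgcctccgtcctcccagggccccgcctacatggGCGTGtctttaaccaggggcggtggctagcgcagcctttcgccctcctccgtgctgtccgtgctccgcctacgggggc
Ldhb, chr6:142507958-142508207, - strand: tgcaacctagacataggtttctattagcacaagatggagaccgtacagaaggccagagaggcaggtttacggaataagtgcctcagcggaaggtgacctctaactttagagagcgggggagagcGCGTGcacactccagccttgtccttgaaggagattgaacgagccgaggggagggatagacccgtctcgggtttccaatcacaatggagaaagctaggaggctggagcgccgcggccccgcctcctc
Slc2a2, chr3:28697653-28697902, + strand: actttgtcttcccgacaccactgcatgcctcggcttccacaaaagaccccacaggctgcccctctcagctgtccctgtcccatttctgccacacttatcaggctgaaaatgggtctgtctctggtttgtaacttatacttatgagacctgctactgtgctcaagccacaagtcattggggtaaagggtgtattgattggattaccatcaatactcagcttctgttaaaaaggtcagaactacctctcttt

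Ldha and Pdk1 each have a second annotated start, and the window of the first is shown. The window not shown held 1 match for Ldha and 0 for Pdk1. In the windows shown, Ldha had 5 matches counted by strand, at 145, 144, 48, 47 and 34 bases before the start, and Slc16a3 had 2, at 27 and 14. Pdk1 and Ldhb each had 1, at 78 and 126 bases, although Pdk1 was 3.41 times and Ldhb 1.13 times the other WT buds in WT replicate 5. The Slc2a2 window had none. The windows shown do not stand for all members. Tpi1 and Gpi1 passed the outlier criterion in WT replicate 5, and their windows had 0 matches. Slc16a1 and Pdk3 had 4 matches each and Hif1a and Pdha1 had 3 each, counted by strand, and none of these genes passed it. By gene, 16 of 18 members that passed it held a match, and 15 of 21 others did.

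Between genotypes, few members differed, and 16 of the 36 tested members changed the sign of their log2 fold change when WT replicate 5 was left out. Across all tested genes limma called 2 at an adjusted p below 0.05 (0.0145%), and none of the 36 members was among them. The smallest adjusted p of a member was 0.291. At an unadjusted p below 0.05, Slc2a2 was higher in null buds (1 of 36, with 6.29% of all genes), and Eno3 and Ldhb were lower (2 of 36, with 4.99% of all genes). With all 8 buds 9 members had a higher and 27 a lower mean on the log2(FPKM + 1) scale in null buds, and their median difference was -0.12 in log2 (all genes -0.01). Without WT replicate 5, 23 were higher and 13 lower, the median was 0.03, and no member was called. Then Slc2a2, Pfkfb1 and Aldoa were higher at an unadjusted p below 0.05 (3 of 36, with 6.37% of all genes) and none was lower (4.81% of all genes).

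**Figure D4:**
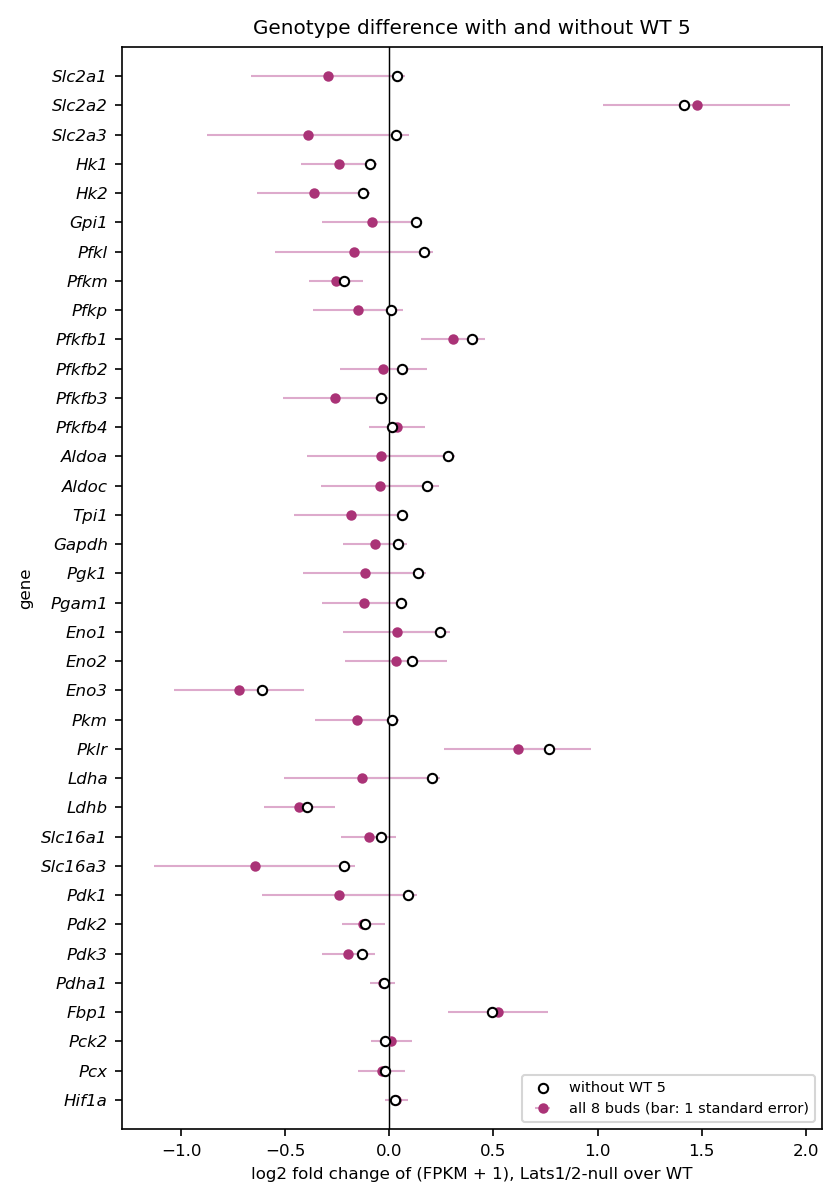
Log2 fold change of (FPKM + 1), Lats1/2-null over WT, for the 36 tested members: filled points use all 8 buds with a bar of 1 standard error, open points leave out WT replicate 5. The open points lie to the right of the filled ones for most glycolytic enzymes, and Slc2a2 is the highest and Eno3 the lowest point in both, while Slc16a3 moves from -0.65 to -0.22.

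Counted without a model, Slc2a2 was the only tested member whose null values all lay above the WT range (1 of 36, with 4.46% of all genes), and none lay wholly below it (3.06% of all genes). Without WT replicate 5, 4 members lay above (Slc2a2, Pfkfb1, Aldoa and Aldoc, with 5.81% of all genes) and none below (4.69% of all genes). For a single gene the exact permutation test has 56 splits of the buds and cannot give a p below 0.0179, or 0.0286 with 35 splits when a WT bud is left out.

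Slc2a2 had the largest genotype difference of the 36 tested members on the log2 scale. Its values were 1.11, 1.67, 0.578, 1.54 and 0.763 FPKM in WT and 2.93, 2.35 and 14.0 in null buds, so the groups did not overlap and null replicate 3 was far above the rest. The log2 fold change was 1.48 ± 0.45 (SE, p = 0.00919, adjusted p = 0.291 by limma), and the exact permutation test gave p = 0.0179, two-sided. Without WT replicate 5 it was 1.42 (adjusted p = 0.388 by limma), and over the libraries left out in turn it lay between 0.80 (without null replicate 3) and 1.88. Slc2a2 held 0.64% to 5.28% of the summed FPKM of the 3 glucose transporters in WT buds and 6.64% to 27.4% in null buds.

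Several marker lists moved with Slc2a2. The epithelium list was highest in null replicate 3 as well, and E-cadherin (Cdh1) was 21.1 to 31.2 FPKM in WT and 46.2, 35.4 and 94.9 in null buds. Pancreatic progenitor markers summed to 132 to 190 FPKM in WT and to 274, 199 and 495 in null buds, and endocrine markers to 762 to 985 and to 1435, 951 and 2305. Liver, where Slc2a2 is also expressed, had markers that summed to 190 to 270 FPKM in WT and to 291, 232 and 602 in null buds, with Afp at 13.0 to 27.8 and at 30.5, 31.4 and 89.5. The paper also lists Afp among known TEAD target genes. The part of the cells behind these marker lists in the higher Slc2a2 was not tested.

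Eno3 and Ldhb were the lower members. Eno3, the muscle enolase, was 23.7, 18.8, 41.3, 35.8 and 42.1 FPKM in WT and 18.9, 26.9 and 12.0 in null buds. Its log2 fold change was -0.72 ± 0.31 (SE, p = 0.0458 and adjusted p = 0.433 by limma; exact permutation test p = 0.143, two-sided). Its groups overlapped, since WT replicates 1 and 2 lay within the null range. Eno3 was at -0.61 without WT replicate 5 (adjusted p = 0.525 by limma), and its unadjusted p was then above 0.05. With each library left out in turn it lay between -0.99 (without null replicate 2) and -0.43 (without null replicate 3). Ldhb had a log2 fold change of -0.43 ± 0.17 (SE, p = 0.0327 and adjusted p = 0.396 by limma; exact permutation test p = 0.0893, two-sided), with null replicate 2 inside the WT range. Without null replicate 2 Ldhb reached -0.66, with an adjusted p of 0.0773 by limma, and without null replicate 3 it was -0.24. Without WT replicate 5 it was -0.40 (adjusted p = 0.468 by limma), also above an unadjusted p of 0.05. The order of the buds in both genes was close to that of Barx1, a homeobox gene of stomach mesenchyme, picked from the 16 mesenchyme markers after the values were seen: 234, 173, 500, 359 and 406 FPKM in WT and 183, 302 and 115 in null buds. Over the whole mesenchyme list, 11 of 14 tested markers had a lower and 3 a higher mean in null buds. At an unadjusted p below 0.05, 2 were lower (4.99% of all tested genes were) and 1 was higher (6.29% were). The part of these cells in the Eno3 and Ldhb values was not tested. The muscle markers, of which 2 of 10 were tested, summed to 27.5 to 40.1 FPKM in WT and 16.0 to 28.9 in null buds.

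Pklr and Fbp1 had positive differences that missed the threshold. Pklr, the pyruvate kinase of liver and red blood cells, was 1.03, 1.53, 1.85, 5.09 and 4.20 FPKM in WT and 4.58, 3.52 and 4.69 in null buds. Its log2 fold change was 0.62 ± 0.35 (SE, p = 0.113 and adjusted p = 0.566 by limma; exact permutation test p = 0.250, two-sided). It was 0.77 without WT replicate 5 (adjusted p = 0.460 by limma). The unadjusted p of Pklr by limma was 0.00216 with the replicate block, 0.0114 with array weights and 0.0249 without WT replicate 4. Under the other settings it was above 0.05. The WT buds fell on both sides of the null range, and the red blood cell genes differed between the same WT buds: they summed to 2668, 5390, 5857, 15884 and 12255 FPKM in WT and to 10280, 8127 and 9059 in null buds. Their part in the Pklr values was not tested. Fbp1, the fructose bisphosphatase of liver and kidney, was 0.872, 0.595, 0.151, 0.563 and 0.373 FPKM in WT and 0.527, 1.19 and 1.93 in null buds. Its log2 fold change was 0.52 ± 0.24 (SE, p = 0.0562 and adjusted p = 0.467 by limma; exact permutation test p = 0.0714, two-sided). Without WT replicate 5 it was 0.49 (adjusted p = 0.527 by limma), without null replicate 3 it was 0.30, and without null replicate 1 it was 0.77. The unadjusted p of Fbp1 by limma was 0.0105 without null replicate 1 and 0.0400 without WT replicate 1. It was 0.0464 without the trend, 0.0469 without a filter and above 0.05 under the other settings. Fbp2, the muscle form, was too low for the test, with 0 to 0.173 FPKM in WT and 0.175, 0.327 and 0.332 in null buds (exact permutation test p = 0.0179, two-sided). Its highest WT value, in WT replicate 2, and its lowest null value, in null replicate 1, were nearly equal. At this level single reads set the steps between values, so this p rests on few reads.

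**Figure D5:**
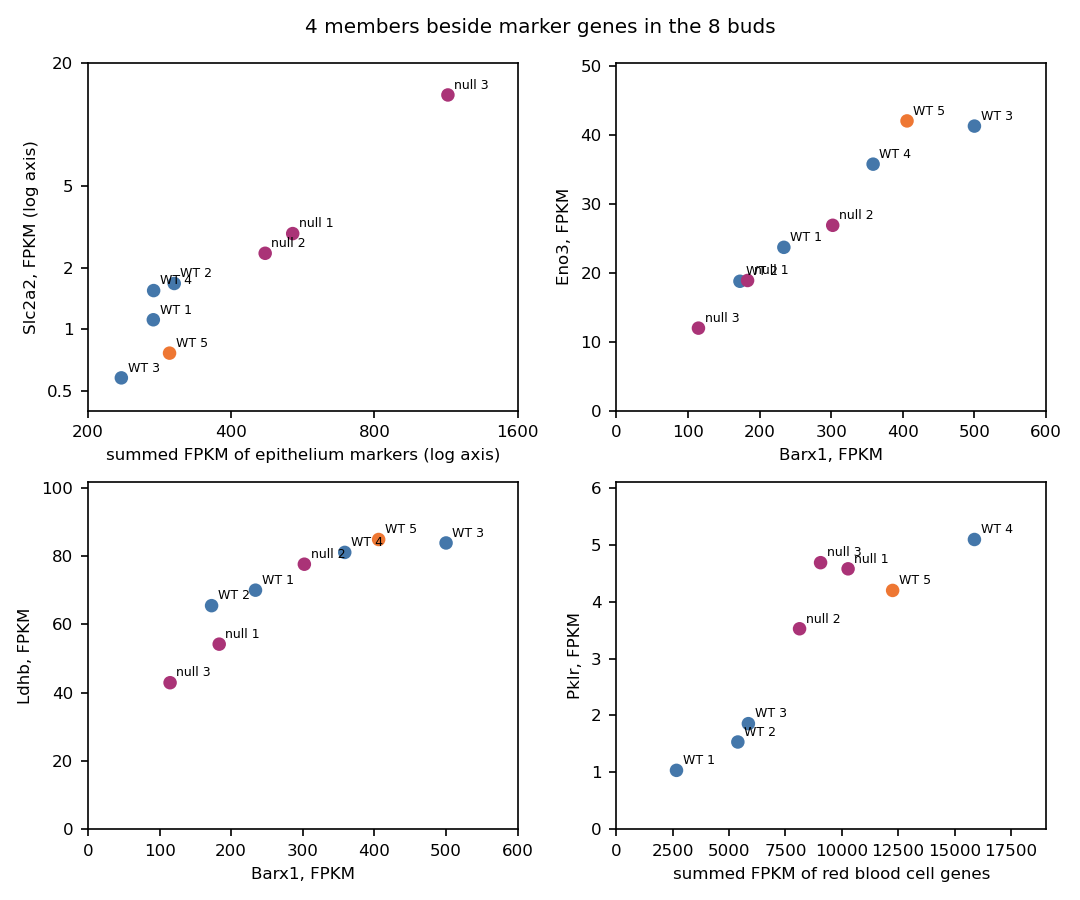
4 members (vertical axes, FPKM) beside marker genes (horizontal axes, FPKM) in the 8 buds, with log axes for Slc2a2 only. Slc2a2 and the epithelium markers are both highest in null 3, Eno3 and Ldhb rank the buds nearly as Barx1 does, and Pklr is lowest in WT 1 to 3, the buds with the lowest red blood cell sums. Barx1 was picked from the 16 mesenchyme markers after the values were seen. Of the 14 tested mesenchyme markers, 11 had a lower and 3 a higher mean in null buds.

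Aldoa, Aldoc and Pfkfb1 were the tested members whose groups overlapped with all 8 buds and no longer did without WT replicate 5. Aldoa had a log2 fold change of -0.04 with all buds and of 0.28 without WT replicate 5, when the null buds were 1.22 times the mean of WT replicates 1 to 4 (p = 0.00365, adjusted p = 0.288 by limma; exact permutation test p = 0.0286, two-sided). Pfkfb1, the liver and muscle PFKFB form, was 2.24, 2.86, 2.39, 3.06 and 3.97 FPKM in WT and 4.03, 3.58 and 3.70 in null buds, with a log2 fold change of 0.30 with all buds and 0.40 without WT replicate 5 (adjusted p = 0.364 by limma). Its share of the summed FPKM of the 4 PFKFB genes was 13.3% to 18.4% in WT and 21.7% to 22.5% in null buds, without overlap. Aldoc, the brain aldolase, was 0.702 to 1.1847 FPKM in WT replicates 1 to 4, 3.46 in WT replicate 5 and 1.1853 to 1.53 in null buds, so its groups barely separated. Its log2 fold change without WT replicate 5 was 0.18 (p = 0.265, adjusted p = 0.695 by limma; exact permutation test p = 0.0571, two-sided).

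None of the remaining tested members was at an unadjusted p below 0.05 with all 8 buds. Pfkm had a log2 fold change of -0.26 ± 0.13 (SE, p = 0.0762 and adjusted p = 0.516 by limma; exact permutation test p = 0.125, two-sided). Its groups overlapped. With each library left out in turn it lay between -0.40 (without null replicate 2) and -0.18 (without null replicate 1). Its unadjusted p by limma was 0.0304 without WT replicate 1 and 0.0102 without null replicate 2. With array weights it was 0.0267. Of the 19 genes that stood out in WT replicate 5, null replicates 1, 2 and 3 lay above the range of WT replicates 1 to 4 for 5, 7 and 8 genes and below it for 2, 1 and 4. Slc16a3 had a log2 fold change of -0.65 ± 0.48 (SE) with all 8 buds and -0.22 without WT replicate 5 (adjusted p = 0.669 and 0.579 by limma). Gapdh, Pkm and Slc2a1 had ratios of 1.03, 1.01 and 1.02 between null buds and WT replicates 1 to 4. Hif1a, Pdha1, Pck2 and Pcx had log2 fold changes of 0.03 ± 0.05, -0.03 ± 0.06, 0.01 ± 0.10 and -0.04 ± 0.11 (SE) with all 8 buds, and of 0.03, -0.03, -0.02 and -0.02 without WT replicate 5. Eno2, the neuronal enolase, was 0.529 to 2.01 FPKM in WT and 0.787 to 1.24 in null buds. G6pc, the glucose-6-phosphatase catalytic subunit of liver, was listed at 0 in all 8 buds, and Pck1 was above 0 in WT replicate 1 only, at 0.0389 FPKM. Pdk4, a kinase induced in fasting, was 0.0605 to 0.517 FPKM over the 8 buds. Of the X-linked members (Pgk1, Pdha1, Pdk3 and Pfkfb1), none was highest or lowest of the 8 buds in WT replicate 3 except Pdha1, which was lowest there, and that bud was the only 1 with Xist above 1 FPKM (75.4).

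No gene of the 6 context lists reached an adjusted p below 0.05 by limma. Over all tested genes, 6.29% were higher and 4.99% lower at an unadjusted p below 0.05, the background for the counts below. Null values lay wholly above the WT range for 4.46% of all tested genes and wholly below it for 3.06%. Among other glycolysis and pyruvate genes, 4 of 30 were higher at an unadjusted p below 0.05 and 0 lower, and those without overlap between the groups were Pdp1, a pyruvate dehydrogenase phosphatase (1.85 to 3.21 FPKM in WT; 3.63, 3.68 and 7.39 in null buds), and Emb, a partner of the lactate transporters (22.7 to 27.0; 33.5, 27.7 and 49.6). In the pentose phosphate pathway 2 of 10 were higher and 0 lower, Prps2, which makes phosphoribosyl pyrophosphate, with a log2 fold change of 0.42, and H6pd, the glucose-6-phosphate dehydrogenase of the endoplasmic reticulum, with 0.33. In the tricarboxylic acid cycle 1 of 21 was lower, Sdhc, a membrane subunit of succinate dehydrogenase (41.7 to 49.8 FPKM in WT and 39.1 to 41.6 in null buds). Of the glycogen genes 1 of 21 was higher, Stbd1, a glycogen-binding protein (4.74 to 6.46 and 6.86 to 14.6 FPKM). Hypoxia targets outside glycolysis had 1 higher, the lipid droplet protein Plin2 (log2 fold change 0.45), and 1 lower, the lysyl oxidase Loxl2 (-0.66), with a list median of -0.26 that was -0.07 without WT replicate 5. The list of Myc family and other regulators had 0 of 16 past an unadjusted p of 0.05. Pdp1, Emb, H6pd, Prps2, Stbd1 and Plin2 were each highest in null replicate 3, the bud with the highest epithelial sum, and the part of the epithelium in these values was not tested.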

How the data were processed

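The deposited table holds 1 FPKM value per gene and library, made by the authors from stranded, ribosomal RNA-depleted total RNA of single E11.0 buds: per the labels and methods, reads were trimmed with cutadapt 1.12, aligned to mm10 (GRCm38) with TopHat2 2.1.0 and quantified with Cuffdiff 2.2.1. The methods state quantile normalization, but the columns do not share a distribution, and the values were used as deposited. Mutants were compared with WT or heterozygous littermates in the study as a whole, and the litter of each library was not given in the sources used here. Starts in the table count from 0 and were moved to 1-based positions. The read depth is not in the table; relative depth was taken from the steps between values below 0.2 FPKM, with a tolerance of 0.05 on the log2 scale, where a single read is the unit.

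Columns were mapped by library code to 5 WT and 3 Lats1/2-null libraries. The 13777 genes averaging 0.5 FPKM or more went into limma 3.58.1 (R 4.3.3) as log2(FPKM + 1), with genotype as the only term, a trended prior variance and Benjamini-Hochberg adjustment over all of them. A fold change on that scale understates the change of low genes. Single genes were also tested by an exact two-sided permutation test of mean FPKM. The limma step was tested on simulated data first. All 40 members are named, and from each of the 6 context lists those at an unadjusted p below 0.05 whose groups do not overlap, at most 3 by smallest p. The members and lists were chosen with earlier results of these data known. Other settings tried were 0.1 as the pseudocount, a filter at 2 FPKM or none, quantile normalization, median-ratio scaling, array weights, no trend, a replicate block and leaving out each library. The scalings tried on the count of genes that stood out in WT replicate 5 were added after seeing the data. Promoter windows and gene spans were taken from RefSeq tables. Where replicate numbers were shared, the deviations of the same-numbered buds from their group means correlated at 0.0855, -0.0969 and 0.0685, so the numbers were not taken as pairs.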

Additional observations from a re-analysis of the deposited data

Results flagged for a closer look

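In 19 tested members the WT group held 1 bud far above the others, WT replicate 5 in each case. The gap to the next WT bud, as a share of the whole WT range, was 0.871 for Slc2a1, 0.887 for Slc2a3, 0.926 for Hk1, 0.959 for Hk2, 0.832 for Gpi1, 0.901 for Pfkl, 0.711 for Pfkp, 0.766 for Pfkfb2, 0.884 for Pfkfb3, 0.96 for Aldoa, 0.825 for Aldoc, 0.933 for Tpi1, 0.85 for Pgk1, 0.813 for Pgam1, 0.82 for Eno1, 0.755 for Pkm, 0.902 for Ldha, 0.908 for Slc16a3 and 0.866 for Pdk1. For 5 buds a gap above 0.71 is taken as standing apart, and chance alone gives this in about 1 of 20 groups. Pck1 had a share of 1, because WT replicate 1 was the only WT bud above 0.

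Among other genes named in the text, WT replicate 5 was far above the rest for Loxl2 (0.928), Bnip3 (0.942), Adm (0.984), Ddit4 (0.835), Vegfa (0.715), Hspa1a (0.995) and Hspa1b (0.991). Plin2 stood apart in WT replicate 4 (0.727, highest), and Sdhc in WT replicate 1 (0.732, lowest).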

How the results depend on the processing

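No member was called at an adjusted p below 0.05 by limma under any of the 16 alternatives. Over all tested genes the 2 calls became 18 with a pseudocount of 0.1, 174 with array weights, 1 without the trend, 1 with the replicate block, and 0 to 69 with a library left out (69 without null replicate 2, 19 without null replicate 3). Genes at an unadjusted p below 0.05 numbered 2578 with array weights and 781 to 2018 with a library left out, and members 5 with array weights and 1 to 5 with a library left out. The 9 members with a higher mean in null buds became 16 with array weights, 25 with the replicate block and 6 to 23 with a library left out, the highest without WT replicate 5. The median log2 fold change of the members was 0.055 with the replicate block and -0.18 to 0.035 with a library left out. Members without overlap between the groups in either direction numbered 1 (7.51% of all tested genes) and 1 to 5 with a library left out (9.19% to 19.4% of all tested genes), the highest of both without null replicate 2. The 19 members that stood out in WT replicate 5 were 18 under median-ratio scaling and 17 under quantile normalization or on the log2 scale.

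Of 573 member fold changes under an alternative, 61 changed sign, and none of these was at an adjusted p below 0.05 by limma. Aldoa was among them at an unadjusted p by limma of 0.00365 without WT replicate 5 and 0.0297 with the replicate block. With the replicate block, which in effect rests on replicates 1 to 3 since WT replicates 4 and 5 have no partner and the numbers are shared labels only, the log2 fold changes of opposite sign were Slc2a1 0.067, Slc2a3 0.13, Gpi1 0.13, Pfkl 0.13, Pfkp 0.058, Pfkfb2 0.063, Aldoa 0.27, Aldoc 0.096, Tpi1 0.052, Gapdh 0.075, Pgk1 0.18, Pgam1 0.067, Pkm 0.031, Ldha 0.21, Slc16a1 0.0039, Pdk1 0.030, Pdha1 0.016, Pck2 -0.034. With array weights they were Gpi1 0.022, Pfkp 0.038, Pfkfb2 0.082, Aldoa 0.068, Aldoc 0.028, Gapdh 0.0095, Pcx 0.0069. With quantile normalization they were Pfkfb4 -0.019, Aldoa 0.023, Gapdh 0.0034, Eno2 -0.0066, Pck2 -0.010. With a library left out, the ranges that crossed 0 were Slc2a1 -0.42 to 0.037, Slc2a3 -0.56 to 0.032, Gpi1 -0.17 to 0.13, Pfkl -0.28 to 0.17, Pfkp -0.25 to 0.0095, Pfkfb2 -0.21 to 0.21, Pfkfb4 -0.014 to 0.093, Aldoa -0.13 to 0.28, Aldoc -0.17 to 0.18, Tpi1 -0.25 to 0.060, Gapdh -0.13 to 0.039, Pgk1 -0.24 to 0.14, Pgam1 -0.21 to 0.056, Eno1 -0.099 to 0.24, Eno2 -0.066 to 0.18, Pkm -0.23 to 0.013, Ldha -0.27 to 0.20, Pdk1 -0.37 to 0.088, Pck2 -0.037 to 0.041, Pcx -0.13 to 0.068. WT replicate 5 accounted for 16 of these sign changes, and the cause was not tested.

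The table gives no read counts, so the precision of low genes such as Slc2a2, Fbp1, Fbp2, Aldoc and Eno2 is unknown, and 3 null buds limit every test. Pseudogenes and loci that differ in length from RefSeq (Slc2a3, Eno3, Tpi1, Ldha, Hif1a, Pfkm, Pfkp, Pdk1 and Pdha1) limit what their FPKM measure. The litter of each bud, the dissection and cell makeup cannot be told apart from genotype here.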

Other observations

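Endothelial genes were also high in WT replicate 5: 7 of 12 markers had their highest value of the 8 buds there (22.4% of all tested genes did), and the list summed to 282 FPKM against 172 to 246 in the other WT buds and 122 to 189 in null buds. Slc16a1 held 49.0% to 61.2% of the summed FPKM of the 2 lactate transporters in 7 buds and 24.9% in WT replicate 5. The summed FPKM of the 6 gluconeogenic genes stayed between 12.0 and 14.5 in all 8 buds.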
